A study of Mus musculus with 22 samples.

Results

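The genes described here were low or high in the livers of germ-free mice relative to 4 other groups at once: conventionally raised mice of both vendors, and germ-free mice colonised from either vendor. Group means of log2(RPKM + 1) were compared, where RPKM is reads per kilobase of gene scaled to library depth. Genes with a mean RPKM of at least 5 over the 22 libraries entered, without symbols starting with Cyp, Ces, Sult, Gst or Gm and a digit, without symbols ending in Rik, and without Csad and Dio1. The score of a gene low in germ-free livers is the lowest of the other 4 group means minus the germ-free mean, and the score of a gene high in germ-free livers is the germ-free mean minus the highest of the other 4. The 60 highest scores of each kind were taken, 120 of 8169 eligible genes among 23909 symbols in the table. The members were chosen by the difference of germ-free livers from each other group in these libraries, so that difference is given as a description, without a test.

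All libraries came from livers of fasted male C57BL/6 mice. GF_TAC (n = 5) and GF_JAX (n = 5) were germ-free mice that were given cecal material of Taconic or Jackson mice and sampled 4 weeks later after 16 h without food. GF (n = 4) were germ-free mice, and TAC (n = 4) and JAX (n = 4) were conventionally raised mice of the vendors Taconic and Jackson. The hours of fasting of GF, TAC and JAX, the ages and the substrains are not given in the sources used here, and vendor, housing and substrain cannot be told apart. The labels number the libraries within a group and do not say whether each came from its own animal. The p-values therefore cover the spread among these libraries, part of which may be technical.

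Germ-free mice carry no microbes, and their livers receive portal blood without microbial products such as short-chain fatty acids, secondary bile acids and cell wall fragments. Hepatocytes respond to gut signals with changes in the genes of lipid, bile acid and xenobiotic metabolism, in hepatokines such as Fgf21, and in secreted proteins of iron and acute phase control. Transfer of cecal contents brings gut microbes of a donor to a germ-free animal.

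Relative sequencing depth, read from the steps of 1 read among low values, lay between 0.589 and 1.66 of that of library JAX 1. For each library, log2 RPKM, less the mean of each gene over the libraries, was fitted against log2 transcript length. Library type here means only whether the fitted slope lay above or below 0. Since genes were centred, slopes are relative to the other libraries and both signs must occur. Slopes ran from -0.2126 in GF 1 to 0.2029 in GF_JAX 4, with GF 2 (-0.0078) and JAX 1 (0.0606) nearest to 0 on each side. The cut at 0 was a choice, and 2 distinct kinds of library were not tested for. Slopes were positive in all TAC and JAX libraries and in GF_JAX 1 and 4. They were negative in all GF and GF_TAC libraries and in GF_JAX 2, 3 and 5. GF against TAC or JAX, and GF_TAC against TAC, are therefore also comparisons between library types, and group and library type cannot be told apart there. GF, GF_TAC and GF_JAX 2, 3 and 5 share a type, and so do JAX, TAC and GF_JAX 1 and 4. The median transcript length was 3059 bases for the protein-coding genes low in GF and 1503 bases for those high in GF, against 2821 bases over the eligible genes. The hepatocyte markers Alb, Apoa1, Ttr, Apoe, Fgb and Tat were detected in every group, with summed levels of 2542 to 6371 RPKM per library.

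Short RNAs took the highest ranks of both lists. The genes low in GF were 43 protein-coding genes, 9 snoRNAs, 7 miRNAs and 1 pseudogene, Apoo-ps, and the genes high in GF were 35 protein-coding genes, 15 miRNAs, 4 snoRNAs and 6 others. Among the eligible genes 97.4% were protein-coding. Small nucleolar RNAs guide chemical modification of ribosomal RNA, and miRNAs pair with mRNAs through a seed of bases 2 to 8. Of the 12 highest scores, 12 in the list low in GF and 11 in the list high in GF belonged to such RNAs, and the first protein-coding gene held rank 13 in both. RPKM divides by length, so a single read on a very short gene gives a large value, and the libraries were made from poly(A)-selected RNA.

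The leading miRNAs are shown with their mature sequences from RefSeq (build GRCm38.p6, another build than the mm9 of the deposited values), since their names carried the largest scores. The table held 20 of the 22 miRNA members, and no seed was shared between any of them. The seed is in capitals.
mmu-miR-5131: cGGCGCCCcacggagccccgagc
mmu-miR-6516-5p: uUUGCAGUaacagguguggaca
mmu-miR-6516-3p: uCAUGUAUgauacugcaaacag
mmu-miR-1894-5p: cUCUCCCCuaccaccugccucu
mmu-miR-1894-3p: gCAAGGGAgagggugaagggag
mmu-miR-1945: uCUUCGCGgguacugucgggac
mmu-miR-2861: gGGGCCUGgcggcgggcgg
mmu-miR-1247-3p: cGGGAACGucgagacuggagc
mmu-miR-1247-5p: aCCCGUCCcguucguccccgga

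In that build Mir5131 gives the mature sequence at chr14:45657972-45657994, minus strand, and miR-1894-5p stands at chr17:35917899-35917920, plus strand. Mir1894 had the highest score of the genes high in GF, 6.11, and its values were 6174, 3642, 0 and 0 RPKM in GF 1 to 4 and 0 in each of the other 18 libraries. Scaled by depth, both values were equal, as single reads would be. Mir1945, Mir1247, Mir1903, Mir324, Mir5709 and Mir18 were each above 0 in a single GF library and in no other. Snord33, second in that list, had 0, 0, 4732, 0 and 0 RPKM in GF_TAC, 0, 0, 0, 0 and 0 in GF_JAX and 10037, 2960.1, 4466 and 0 in GF. In vendor mice, Snord33 had 0, 0, 0 and 0 RPKM in TAC and 9121, 0, 0 and 0 in JAX. Mir2861 had 0, 3828, 4732, 0 and 0 RPKM in GF_TAC, 0, 3659, 0, 0 and 0 in GF_JAX and 10037, 5920.3, 0 and 7442 in GF. In vendor mice, Mir2861 had 0, 0, 4549 and 0 RPKM in TAC and 0, 0, 9889.9 and 3724 in JAX. Its value in GF 1 equals that of Snord33 there. Of the 19 short RNAs high in GF, 7 were seen in GF alone and 12 in a single GF library, in 1 to 11 of the 22 libraries.

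Short RNAs low in GF were seen in more libraries. Snord22, with the highest score (5.83), had 749.96, 2472, 0, 1112 and 1053 RPKM in GF_TAC, 149.6, 925, 652, 3048 and 0 in GF_JAX and 0, 0, 0 and 0 in GF. In vendor mice, Snord22 had 119.5, 314, 255 and 137 RPKM in TAC and 128, 387, 0 and 209 in JAX. It was listed at 0 in all 4 GF libraries and also in GF_TAC 3, GF_JAX 5 and JAX 3. Mir5131 had 771, 1299, 1809, 0 and 0 RPKM in GF_TAC, 4006, 221, 2899, 1521 and 0 in GF_JAX and 759, 0, 0 and 0 in GF. In vendor mice, Mir5131 had 1272, 3182, 797 and 967 RPKM in TAC and 842, 771, 565 and 409 in JAX, and 3 of 4 GF libraries were listed at 0. Mir6516 had 946, 475, 880.3, 614 and 211 RPKM in GF_TAC, 330.4, 227, 0, 449 and 0 in GF_JAX and 0, 184, 0 and 0 in GF. In vendor mice, Mir6516 had 792, 347, 282 and 0 RPKM in TAC and 848, 342, 613 and 1386 in JAX. GF 2 was the single GF library above 0. Mir8112, seen in 21 libraries, had 349, 175, 217, 113 and 156 RPKM in GF_TAC, 122, 335, 354, 662 and 342 in GF_JAX and 229.7, 271, 204 and 0 in GF. In vendor mice, Mir8112 had 682, 512, 833 and 1004 RPKM in TAC and 104, 630.3, 302 and 767 in JAX. Its GF range held 6 libraries of other groups. Snora68, Snora30 and Snora21 were listed at 0 in all GF libraries and above 0 in 7, 8 and 9 others, and Snora28 was above 0 in 18 libraries. GF overlapped the other groups in each of the 35 short RNAs, and 9 of the 16 low in GF were listed at 0 in every GF library. Mir3101 and Mir1957b were above 0 in 4 libraries each, with values that were equal to each other once scaled by depth.

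**Figure D1:**
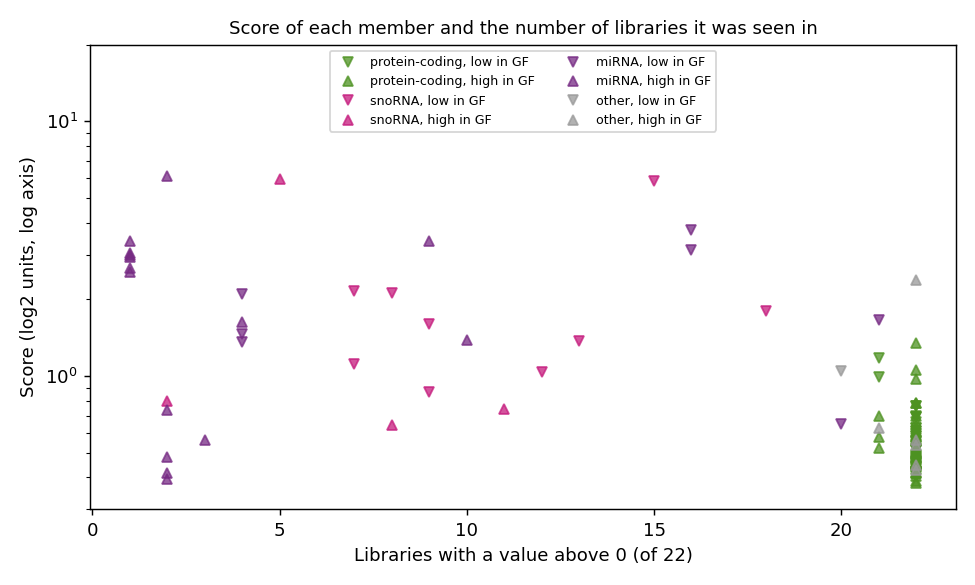
Score of each of the 120 members on a log axis (y, log2 units) against the number of the 22 libraries with a value above 0 (x), by class of RNA and list. Scores above 2 belong to short RNAs and to 1 pseudogene, while the protein-coding members, seen in 21 or 22 libraries, lie between 0.38 and 1.34.

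The protein-coding members carry the rest of the description. Their median score was 0.54 (0.42 to 1.18) in the list low in GF and 0.48 (0.38 to 1.34) in the list high in GF. The last 3 genes inside the list low in GF were Papss1 (0.42), Scfd2 (0.42) and Ppapdc1b (0.42), with Chst13 (0.42), Pparg (0.41) and Tef (0.41) just outside. In the other list Ccl6 (0.41), Slc17a4 (0.39) and Lrrc51 (0.38) were the last protein-coding genes inside, with Tmem42 (0.38), Eif4e3 (0.38) and Slpi (0.37) outside. Among the genes dropped by name, 6 scored as high as the members low in GF and 14 as high as the members high in GF.

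Averaged over the 43 protein-coding genes low in GF, mean log2(RPKM + 1) was 3.59 to 3.91 in GF_TAC and 3.53 to 3.91 in GF_JAX, against 3.02 to 3.19 in GF, 3.97 to 4.31 in TAC and 4.33 to 4.43 in JAX. Both recipient groups thus stood between GF and the vendor mice. Over the 35 genes high in GF the mean was 4.30 to 4.57 in GF_TAC and 3.80 to 4.62 in GF_JAX, against 4.94 to 5.26 in GF, 3.63 to 3.90 in TAC and 3.72 to 3.98 in JAX. In that list the GF_JAX libraries divided by library type. GF_JAX 1 and 4, of the type of the JAX libraries, had means of 3.80 and 3.92, inside the range of JAX, and GF_JAX 2, 3 and 5, of the type of GF, had means of 4.40, 4.62 and 4.47. In the list low in GF the same libraries gave 3.90 and 3.75 against 3.91, 3.73 and 3.53, with no such division.

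**Figure D2:**
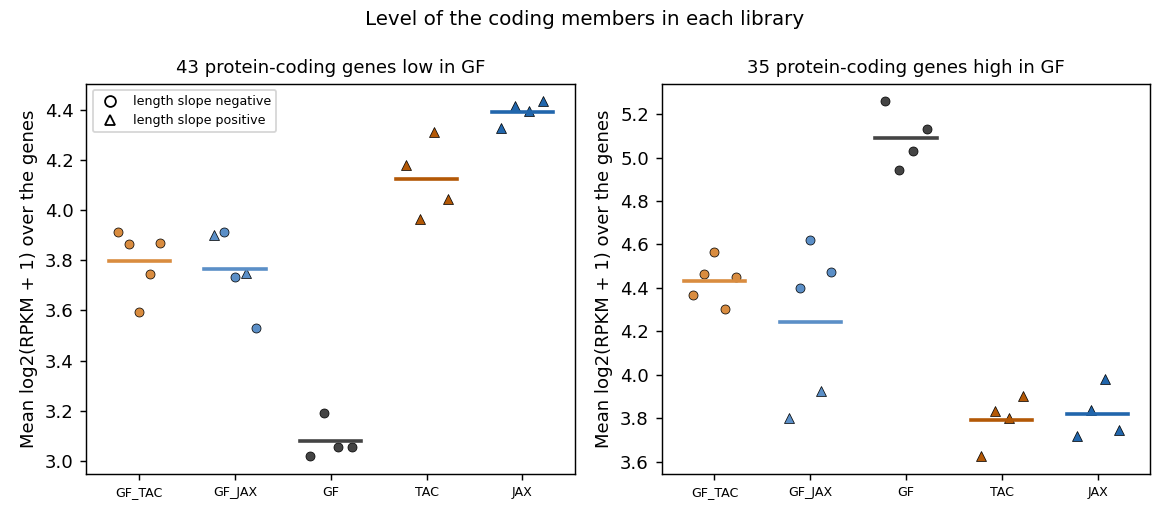
Mean log2(RPKM + 1) of the protein-coding members in each library (points), with group means (lines), for genes low in GF (left) and high in GF (right). Triangles mark libraries with a positive length slope and circles those with a negative one, and on the right the 2 triangles of GF_JAX, 3.80 and 3.92, lie with the vendor mice.

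The median difference from GF of the genes low in GF was 0.64 in GF_TAC and 0.61 in GF_JAX, and GF itself differed from TAC by -0.93 and from JAX by -1.07 (log2 units). For the genes high in GF the median was -0.52 in GF_TAC and -0.75 in GF_JAX, with GF above TAC by 1.18 and above JAX by 1.21. Expressed as the share of the log2 distance between GF and the vendor mice that recipients covered, the median of genes low in GF was 68.5% in GF_TAC (quartiles 54.0 and 90.8) and 62.3% in GF_JAX (39.2 and 77.3). For genes high in GF it was 52.96% in GF_TAC (33.7 and 68.6) and 70.6% in GF_JAX (43.1 and 116). Both recipient groups lay between GF and both vendor groups in 29 of 43 and 20 of 35 genes. The group nearest to GF was a recipient group in 38 of 43 and 30 of 35 genes. The score set each recipient mean at least 0.42 (low in GF) or 0.38 (high in GF) from that of GF. Every share therefore lies above 0 by the choice of genes, and the shares do not measure a degree of restoration. The same counts over all eligible genes were not taken. Of the recipient libraries 8 of 10 were of the library type of GF, and of the vendor libraries 0 of 8, and the part of library type in these shares was not tested. Ranked on GF and the 8 recipient libraries of the same type alone, 13 of the 43 and 17 of the 35 genes were among the 60 highest scores.

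In 6 of the 43 genes low in GF and 6 of the 35 genes high in GF, the 4 GF libraries did not overlap any of the 18 others. Among eligible protein-coding genes this held for 0.126% on the low side and 0.188% on the high side, and nothing is read from the difference, since the score uses this contrast. The 6 low in GF were Clstn3, Rab34, Isyna1, Slc6a9, Fam102a and Tnks1bp1, and the 6 high in GF were Cenpm, Sorbs3, Lhpp, Foxp1, Ccl6 and Slc17a4. Set only against the 8 recipient libraries of its own type, GF did not overlap in 11 and 6 genes, beside 0.766% and 0.452% of eligible protein-coding genes. The 12 genes without overlap became 25 when GF 2 was left out and 7 when values were rescaled to TPM, which gives every library the same total.

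The remaining group differences did not enter the score, apart from its preference for genes whose other 4 means lie close together. Tests used limma on log2(RPKM + 1) over all 12264 genes that reached 1 RPKM in 4 or more libraries, with Benjamini-Hochberg adjustment and a threshold of 0.05. Of the members, 107 could be tested (60 low and 47 high in GF), and 13 short RNAs high in GF did not pass the filter. Between recipients of the 2 donors (GF_TAC minus GF_JAX) 0 of 107 members passed, beside 0.171% of all genes, and 8 had an unadjusted p under 0.05, as 13.3% of all genes did. Between the vendors (TAC minus JAX) 0 of 107 passed, beside 0.294% of all genes, and 14 had an unadjusted p under 0.05, as 8.99% of all genes did. These counts do not show that the donors or vendors act alike on the members.

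Recipients were then compared with vendor mice. In GF_JAX minus JAX 24 of 107 passed, 22.4% beside 13.4% of all genes. In GF_TAC minus TAC 23 of 107 passed, 21.5% beside 23.8% of all genes, so that the second count lay near the share over all genes. The first count stood beside 1638 of 12264 genes in the main fit. It was 24 beside 2491 in TPM, 20 beside 2077 with libraries weighted (array weights) and 33 beside 4241 without GF_JAX 1 and 4. Its excess over the share of all genes thus depended on the setting. All 16 genes low in GF that passed in the first comparison were lower in GF_JAX (5.98% of all genes), and all 8 genes high in GF were higher in GF_JAX (7.37% of all genes). In the second, 9 genes low in GF were lower in GF_TAC (12.7% of all genes) and 14 genes high in GF were higher in GF_TAC (11.1% of all genes). In each of these genes the recipients stood on the side of GF. A total of 35 members passed in at least 1 comparison and 12 in both, among them Clstn3, Rab34, Gal3st1, Fam131c, Fam102a, Papss1, Lpl, Orm3, Hist1h4h, Hamp2 and Ndrg1. With library type as a term in the model, 13 of 107 members passed in GF_JAX minus JAX, beside 687 of all 12264 genes. Of the 24 calls, 10 were among them. That term could be estimated only from GF_JAX 1 and 4 against GF_JAX 2, 3 and 5, since every other group held a single type. All values with that term rest on this contrast of few libraries. None of the 23 calls passed in GF_TAC minus TAC with that term, beside 145 of all 12264 genes. In that comparison all recipient libraries were of one type and all vendor libraries of the other. The difference turned sign for Crip1 (-0.16), Hbb-b2 (-0.18), Ints7 (0.05), Lpl (-0.0014) and Orm3 (-0.0029). Of the 24 calls 15 held whichever library was left out, and of the 23 calls 11 did. The count of 23 was 12 without TAC 1, 15 without TAC 3, 14 without TAC 4, 14 without GF_TAC 3 and 13 without GF_TAC 4. The count over all genes, 2924, was then 2108, 1958, 1800, 2059 and 2080. Where a call was lost when a library was left out, or in GF_JAX minus JAX with library type as a term, that adjusted p is given beside the value.

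**Figure D3:**
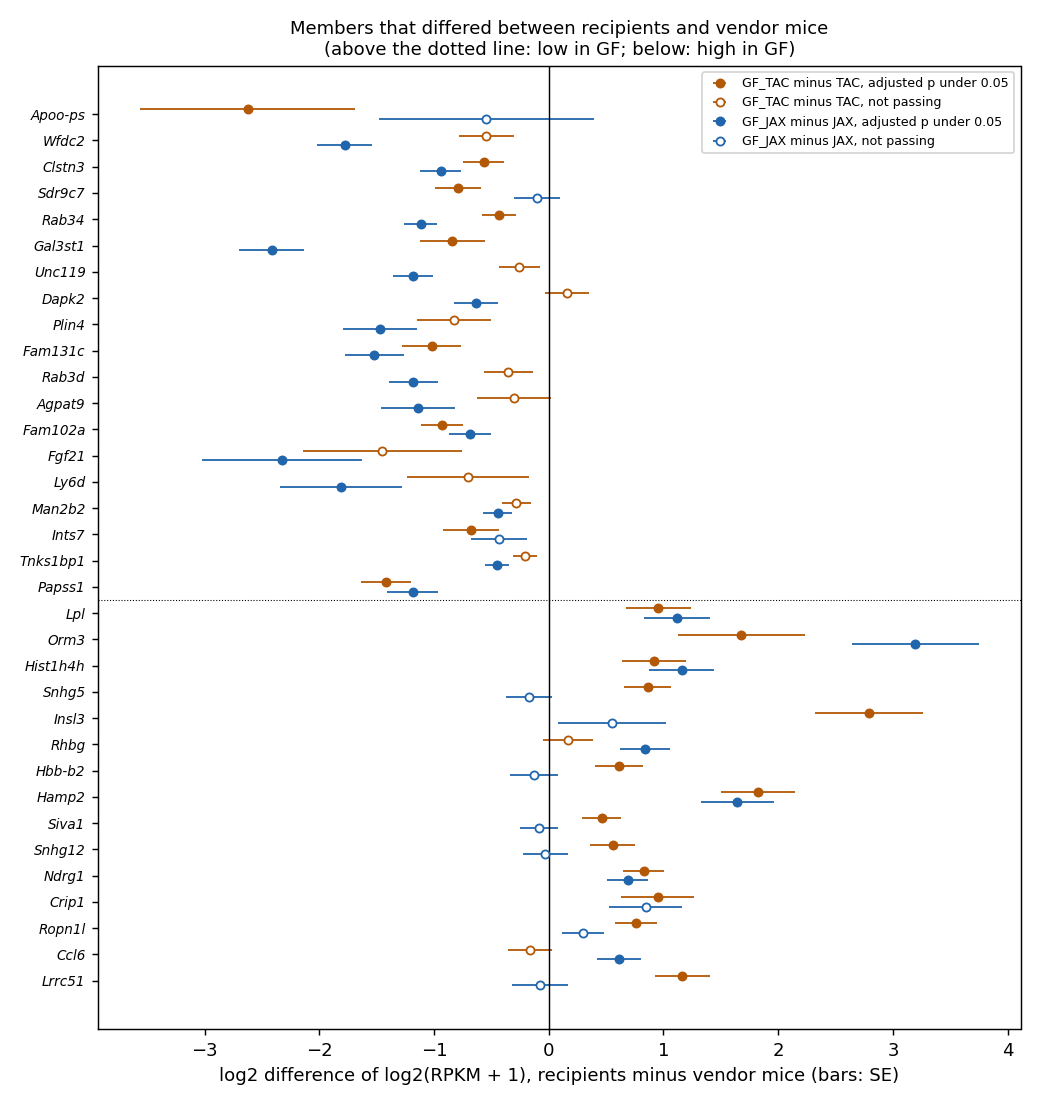
Difference in log2(RPKM + 1) between recipients and the vendor mice of their donor for 34 of the 35 members that passed in at least 1 comparison (points, with SE bars), GF_TAC minus TAC in brown above GF_JAX minus JAX in blue, filled where the adjusted p was under 0.05. Filled points of genes low in GF lie left of 0, down to -2.62 for Apoo-ps, and those of genes high in GF lie right of 0, up to 3.19 for Orm3.

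Promoters are shown for Fgf21 and Hamp2, whose families act in fasting and in iron control, and for 3 genes high in GF with a cyclic AMP response element, chosen after the counts of 11 motifs had been seen. Promoter entries (250 bases before to 50 after the start, RefSeq, GRCm38.p6) matched 58 of 78 protein-coding members. Motifs were searched on both strands, and every match of the STAT5 motif is also one of the GAS element. The E-box, bound by clock and other helix-loop-helix factors, was searched as CACGTG. The D-box of clock output factors was searched as TTATGNAA, the GAS element of STAT proteins as TTCNNNGAA and the cyclic AMP response element as TGACGTCA. The TATA box was searched as TATAAA. The GC box of Sp factors was searched as GGGCGG, the CCAAT box as CCAAT and the STAT5 motif as TTCCNGGAA. The nuclear receptor repeats DR1 and IR1 and a sterol regulatory element were searched as well. The cyclic AMP response element stood in 2 of 35 promoters of genes low in GF and in 4 of 23 promoters of genes high in GF (Rpl26, Hist1h4h, Zswim7 and Gemin6), against 1.88% of all 27025 promoters and 3.24% of those of eligible protein-coding genes. The other motifs are given with their share of all promoters and then of eligible protein-coding ones. The E-box stood in 3 of 35 and 1 of 23 promoters (7.24% and 10.9%), the GAS element in 3 of 35 and 2 of 23 (8.47% and 6.67%) and the TATA box in 2 of 35 and 3 of 23 (14.2% and 6.99%). The CCAAT box stood in 13 of 35 and 7 of 23 (37.9% and 39.0%) and the GC box in 23 of 35 and 11 of 23 (35.9% and 66.0%). The D-box (3.52% and 2.03%), the STAT5 motif (1.15% and 1.25%), DR1, IR1 and the sterol element stood in 0 of 35 and 0 of 23. Capitals mark the E-box and the TATA box in Fgf21 (chr7:45615441-45615740, minus strand), the GAS element in Hamp2 (chr7:30924132-30924431, minus strand) and the cyclic AMP response element in Hist1h4h (chr13:23530794-23531093, plus strand), Zswim7 (chr11:62281346-62281645, minus strand) and Gemin6 (chr17:80224201-80224500, plus strand).
Fgf21: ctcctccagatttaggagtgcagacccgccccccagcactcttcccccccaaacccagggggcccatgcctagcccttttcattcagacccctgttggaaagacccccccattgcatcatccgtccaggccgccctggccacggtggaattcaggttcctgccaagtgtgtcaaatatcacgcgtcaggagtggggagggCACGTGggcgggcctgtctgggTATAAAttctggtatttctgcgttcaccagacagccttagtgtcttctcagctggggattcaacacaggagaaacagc
Hamp2: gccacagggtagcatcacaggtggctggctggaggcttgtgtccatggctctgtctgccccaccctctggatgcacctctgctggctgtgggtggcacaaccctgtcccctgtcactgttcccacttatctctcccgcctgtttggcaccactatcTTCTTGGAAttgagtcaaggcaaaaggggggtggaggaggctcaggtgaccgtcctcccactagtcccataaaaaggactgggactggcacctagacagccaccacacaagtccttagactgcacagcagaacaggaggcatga
Hist1h4h: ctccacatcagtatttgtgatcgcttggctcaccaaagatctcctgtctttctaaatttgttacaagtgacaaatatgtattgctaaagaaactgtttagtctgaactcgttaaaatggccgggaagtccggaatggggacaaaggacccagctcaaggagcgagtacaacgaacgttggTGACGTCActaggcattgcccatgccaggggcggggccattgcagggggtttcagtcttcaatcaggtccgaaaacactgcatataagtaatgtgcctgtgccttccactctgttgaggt
Zswim7: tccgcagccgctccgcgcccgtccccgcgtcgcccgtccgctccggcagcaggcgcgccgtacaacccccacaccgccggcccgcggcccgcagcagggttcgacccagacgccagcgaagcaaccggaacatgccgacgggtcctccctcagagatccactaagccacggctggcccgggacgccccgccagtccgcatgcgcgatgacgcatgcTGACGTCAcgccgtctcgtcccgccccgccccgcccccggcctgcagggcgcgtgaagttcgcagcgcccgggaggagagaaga
Gemin6: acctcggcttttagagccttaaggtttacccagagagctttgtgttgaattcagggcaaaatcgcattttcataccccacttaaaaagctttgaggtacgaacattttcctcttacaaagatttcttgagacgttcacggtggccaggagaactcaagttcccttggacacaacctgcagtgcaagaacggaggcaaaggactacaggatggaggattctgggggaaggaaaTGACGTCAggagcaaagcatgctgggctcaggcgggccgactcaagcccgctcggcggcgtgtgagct

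The members are taken by known role, which was not tested as a theme, and the lists of cell cycle and of amino acid breakdown genes held 0 of them. Iron handling had a member in each list. Slc40a1, ferroportin, the exporter through which cells release iron, had 60.97, 58.1, 53.8, 65.2 and 49.1 RPKM in GF_TAC, 66.8, 43.3, 31.6, 63.5 and 45.02 in GF_JAX and 37.4, 29.5, 34.02 and 21.98 in GF. In vendor mice, Slc40a1 had 57.9, 54.3, 45.8 and 46.03 RPKM in TAC and 54.2, 51.5, 41.3 and 54.7 in JAX. The GF libraries were the lowest as a group, and GF_JAX 3 was the only other library within their range. Slc40a1 in recipients did not differ from that in vendor mice beyond the threshold, with 0.17 ± 0.18 (SE, adjusted p = 0.5) in GF_TAC minus TAC and -0.05 ± 0.18 (SE, adjusted p = 0.872) in GF_JAX minus JAX. Hamp2, a copy of the hepcidin gene whose first form, Hamp, lowers ferroportin, had 215, 186, 209.95, 186 and 293 RPKM in GF_TAC, 83.6, 115, 195, 194 and 301 in GF_JAX and 397, 198, 307 and 310.3 in GF. In vendor mice, Hamp2 had 97.7, 59.9, 38.3 and 57.8 RPKM in TAC and 61.05, 28.4, 69.3 and 55.6 in JAX. By group mean the recipients stood between GF and the vendor mice. No recipient library fell in the range of JAX, and GF_JAX 1 alone fell in that of TAC. It stayed higher in GF_TAC than in TAC, with a log2 difference of 1.82 ± 0.32 (SE, adjusted p = 0.00106) and higher in GF_JAX than in JAX, with a log2 difference of 1.64 ± 0.32 (SE, adjusted p = 0.00255, lost at 0.0645 with library type as a term). Reads of Hamp2 and Hamp may have been split between these near-identical genes. Summed Kupffer cell markers (9 of 10 in the table, all detected in every group), from cells that recycle iron and express Slc40a1, were 213 to 374 RPKM in GF_TAC, 297 to 408 in GF_JAX, 283 to 377 in GF, 185 to 286 in TAC and 141 to 286 in JAX, and their part in the level of Slc40a1 was not tested.

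Hbb-b2, a beta globin of red cells, had 68.1, 58.8, 88.4, 78.1 and 89.1 RPKM in GF_TAC, 55.3, 78.2, 80.3, 45.04 and 104 in GF_JAX and 126, 79.8, 87.1 and 142 in GF. In vendor mice, Hbb-b2 had 54.8, 48.8, 41.5 and 52.6 RPKM in TAC and 96.5, 61.2, 73.2 and 77.3 in JAX. GF overlapped both recipient groups and JAX. Hbb-b2 was higher in GF_TAC than in TAC, with a log2 difference of 0.61 ± 0.21 (SE, adjusted p = 0.0386, lost when any of 7 libraries was left out, at up to 0.11 without TAC 3). The summed erythroid markers without Hbb-b2 were 291 to 406 RPKM in GF_TAC, 318 to 488 in GF_JAX, 339 to 540 in GF, 305 to 325 in TAC and 281 to 360 in JAX, and their part in the level of Hbb-b2 was not tested. Reads of Hbb-b2, Hbb-b1 and Hbb-bs may have been split between near-identical copies. Hbb-b1 ran from 0.0652 to 148 RPKM within GF_JAX, and Hbb-bs from 6.51 to 142 within TAC. The median of Hbb-b1 was 0.101 RPKM in GF_TAC and 51.4 in TAC. The part of read assignment in the level of Hbb-b2 was not tested. In bulk tissue, fewer cells of a type and less RNA per cell cannot be told apart.

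Lipoprotein lipase and its anchor were both high in GF. Lpl, which releases fatty acids from circulating triglyceride and is low in the adult liver, had 13.8, 9.16, 9.17, 15.3 and 13.5 RPKM in GF_TAC, 4.86, 16.3, 23.3, 13.9 and 13.1 in GF_JAX and 29.97, 15.6, 33.3 and 30.4 in GF. In vendor mice, Lpl had 4.75, 5.1, 6.74 and 6.34 RPKM in TAC and 5.197, 5.21, 6.16 and 5.09 in JAX. No TAC or JAX library reached the range of GF, GF_JAX 2 and 3 lay inside it, and GF_JAX 1 was the single recipient library inside the range of TAC. Lpl was higher in GF_TAC than in TAC, with a log2 difference of 0.95 ± 0.28 (SE, adjusted p = 0.021, lost when any of 2 libraries was left out, at up to 0.0584 without TAC 1) and higher in GF_JAX than in JAX, with a log2 difference of 1.12 ± 0.28 (SE, adjusted p = 0.0147, lost at 0.334 with library type as a term). Gpihbp1, which carries Lpl to the surface of capillary endothelium, had 61.3, 48.4, 75.97, 68.5 and 60.3 RPKM in GF_TAC, 54.7, 64.2, 71.3, 59.2 and 73.4 in GF_JAX and 107, 72.2, 92.3 and 90.7 in GF. In vendor mice, Gpihbp1 had 53.8, 56.6, 50.7 and 42.05 RPKM in TAC and 58.98, 57.7, 53.4 and 59.8 in JAX. GF 2 lay among the recipients, and no difference between recipients and vendor mice passed, with 0.30 ± 0.12 (SE, adjusted p = 0.0873) in GF_TAC minus TAC and 0.16 ± 0.12 (SE, adjusted p = 0.417) in GF_JAX minus JAX.

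Fgf21, the fasting hormone that the liver secretes under control of PPARa and ATF4, was low in GF, with 20.8, 48.1, 5.61, 8.21 and 22.2 RPKM in GF_TAC, 30.9, 24.3, 2.75, 7.72 and 11.5 in GF_JAX and 0.595, 8.42, 14.3 and 29.98 in GF. In vendor mice, Fgf21 had 67.6, 28.5, 59.8 and 38.7 RPKM in TAC and 66.5, 63.3, 67.2 and 54.3 in JAX. GF 4 reached the range of TAC but not that of JAX, and 8 of the 10 recipient libraries lay within the range of GF. Fgf21 was lower in GF_JAX than in JAX, with a log2 difference of -2.32 ± 0.70 (SE, adjusted p = 0.0325, lost when any of 6 libraries was left out, at up to 0.091 without GF_JAX 3, and at 0.224 with library type as a term), and the difference of GF_TAC from TAC was -1.45 ± 0.70 (SE, adjusted p = 0.132).

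Members low in GF with known roles in lipid storage and synthesis were Plin4, Agpat9 and Pklr. Plin4, a coat protein of lipid droplets, had 4.396, 4.83, 3.29, 5.55 and 5.49 RPKM in GF_TAC, 9.67, 6.06, 1.47, 3.54 and 7.79 in GF_JAX and 1.43, 2.43, 4.37 and 3.88 in GF. In vendor mice, Plin4 had 8.93, 10.3, 12.3 and 5.695 RPKM in TAC and 17.3, 13.3, 13.9 and 17.8 in JAX. Agpat9 (now Gpat3), which adds the first acyl chain to glycerol phosphate, had 6.51, 11.2, 7.14, 5.36 and 10.3 RPKM in GF_TAC, 7.17, 5.52, 2.28, 9.97 and 7.85 in GF_JAX and 1.81, 3.69, 4.69 and 7.32 in GF. In vendor mice, Agpat9 had 12.98, 5.69, 9.55 and 13.1 RPKM in TAC and 16.9, 12.5, 12.3 and 16.6 in JAX. GF overlapped both recipient groups in both genes and did not overlap JAX. Plin4 was lower in GF_JAX than in JAX, with a log2 difference of -1.47 ± 0.32 (SE, adjusted p = 0.00559, lost at 0.0866 with library type as a term) and Agpat9 was, with a difference of -1.14 ± 0.32 (SE, adjusted p = 0.0254, lost when any of 3 libraries was left out, at up to 0.0763 without JAX 4, and at 0.318 with library type as a term), while neither passed in GF_TAC minus TAC (-0.83 ± 0.32 and -0.30 ± 0.32). Pklr, the liver pyruvate kinase of glycolysis, had 72.3, 77.3, 56.6, 70.9 and 62.9 RPKM in GF_TAC, 105, 50.7, 87.5, 64.3 and 40.3 in GF_JAX and 48.2, 56.1, 34.1 and 38.8 in GF. In vendor mice, Pklr had 70.2, 116, 72.6 and 54.5 RPKM in TAC and 93.9, 84.2, 83.5 and 73.4 in JAX. Recipient values of Pklr overlapped those of the vendor mice, and neither difference passed, with -0.16 ± 0.23 (SE, adjusted p = 0.637) in GF_TAC minus TAC and -0.34 ± 0.23 (SE, adjusted p = 0.323) in GF_JAX minus JAX. Abca3, a lipid transporter of lamellar bodies in the lung, had 13.3, 17.2, 16.2, 11.96 and 14.4 RPKM in GF_TAC, 24.3, 12.3, 14.5, 19.9 and 14 in GF_JAX and 7.16, 16.1, 8.26 and 8.83 in GF. In vendor mice, Abca3 had 20.2, 19.7, 24.2 and 21.5 RPKM in TAC and 18.04, 22.4, 19.9 and 25.5 in JAX. GF 2 reached the recipients, and neither difference from vendor mice passed.

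Cfd, or adipsin, a complement protease made mainly by fat cells, had 6.07, 32.7, 1.73, 18.2 and 32.5 RPKM in GF_TAC, 10.4, 15.6, 33.04, 13.3 and 0 in GF_JAX and 6.72, 2.53, 1.64 and 7.28 in GF. In vendor mice, Cfd had 9.89, 9.56, 32.7 and 5.96 RPKM in TAC and 8.903, 40.7, 10.5 and 34.1 in JAX. Values varied widely within every group, and GF_JAX 5 was listed at 0 below all GF libraries. Adipoq, Plin1 and Lep were listed at 0 in all GF libraries, and Lep also in all GF_JAX, TAC and JAX libraries. Adipoq reached 5.89 RPKM in GF_TAC, 2.65 in GF_JAX, 5.83 in TAC and 0.390 in JAX, with medians of 0 in GF_TAC and TAC. Retn reached 7.19 RPKM in GF_TAC, 5.43 in GF_JAX, 2.35 in GF and 3.20 in TAC, and was listed at 0 in all JAX libraries. Of the 6 adipose markers 3 were above 0 in GF, and the list without Cfd summed to 1.11 to 27.0 RPKM in GF_TAC, 4.82 to 15.6 in GF_JAX, 2.25 to 7.05 in GF, 21.97 to 77.6 in TAC and 103 to 113 in JAX, where most of the level in vendor mice was Cidec, which hepatocytes also express. The part of adipose tissue in the level of Cfd was not tested.

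Idi1, isopentenyl diphosphate isomerase of cholesterol synthesis, was high in GF, with 64.6, 51.5, 64.5, 52.5 and 79.1 RPKM in GF_TAC, 67.4, 14.3, 85.8, 95.5 and 47.8 in GF_JAX and 119.95, 113, 73.5 and 51.9 in GF. In vendor mice, Idi1 had 23.96, 83.4, 26.5 and 16.7 RPKM in TAC and 24.8, 19.1, 21.1 and 21.6 in JAX. TAC 2 and GF_JAX 2 lay far from the other libraries of their groups. By group mean the recipients stood between GF and the vendor mice, and the differences from vendor mice did not pass, with 0.98 ± 0.44 (SE, adjusted p = 0.105) in GF_TAC minus TAC and 1.24 ± 0.44 (SE, adjusted p = 0.0612) in GF_JAX minus JAX. Of the other 22 tested genes of cholesterol synthesis, 9 were higher and 1 lower in GF_TAC than in TAC, and 12 were higher and 0 lower in GF_JAX than in JAX, by limma at an adjusted p under 0.05. Of all genes 11.1% were higher and 12.7% lower in GF_TAC than in TAC, and 7.37% higher and 5.98% lower in GF_JAX than in JAX. With library type as a term 0 of the 22 passed in GF_TAC minus TAC, and 6 were higher and 0 lower in GF_JAX than in JAX, beside 2.56% and 3.04% of all genes. Cholesterol synthesis was not the only such list. In GF_JAX minus JAX, 15 of 20 other male-biased genes and 14 of 24 other acute phase genes were higher and 0 lower. In GF_TAC minus TAC each of these 2 lists had 1 higher and 4 lower. Of 29 other genes of the PPARa list 16 were lower and 0 higher in GF_TAC minus TAC, and 10 lower and 2 higher in GF_JAX minus JAX. With library type as a term the counts of 15, 14 and 16 were 6, 4 and 0. In GF_TAC minus TAC 0.514% of all genes were higher and 0.669% lower with that term.

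**Figure D4:**
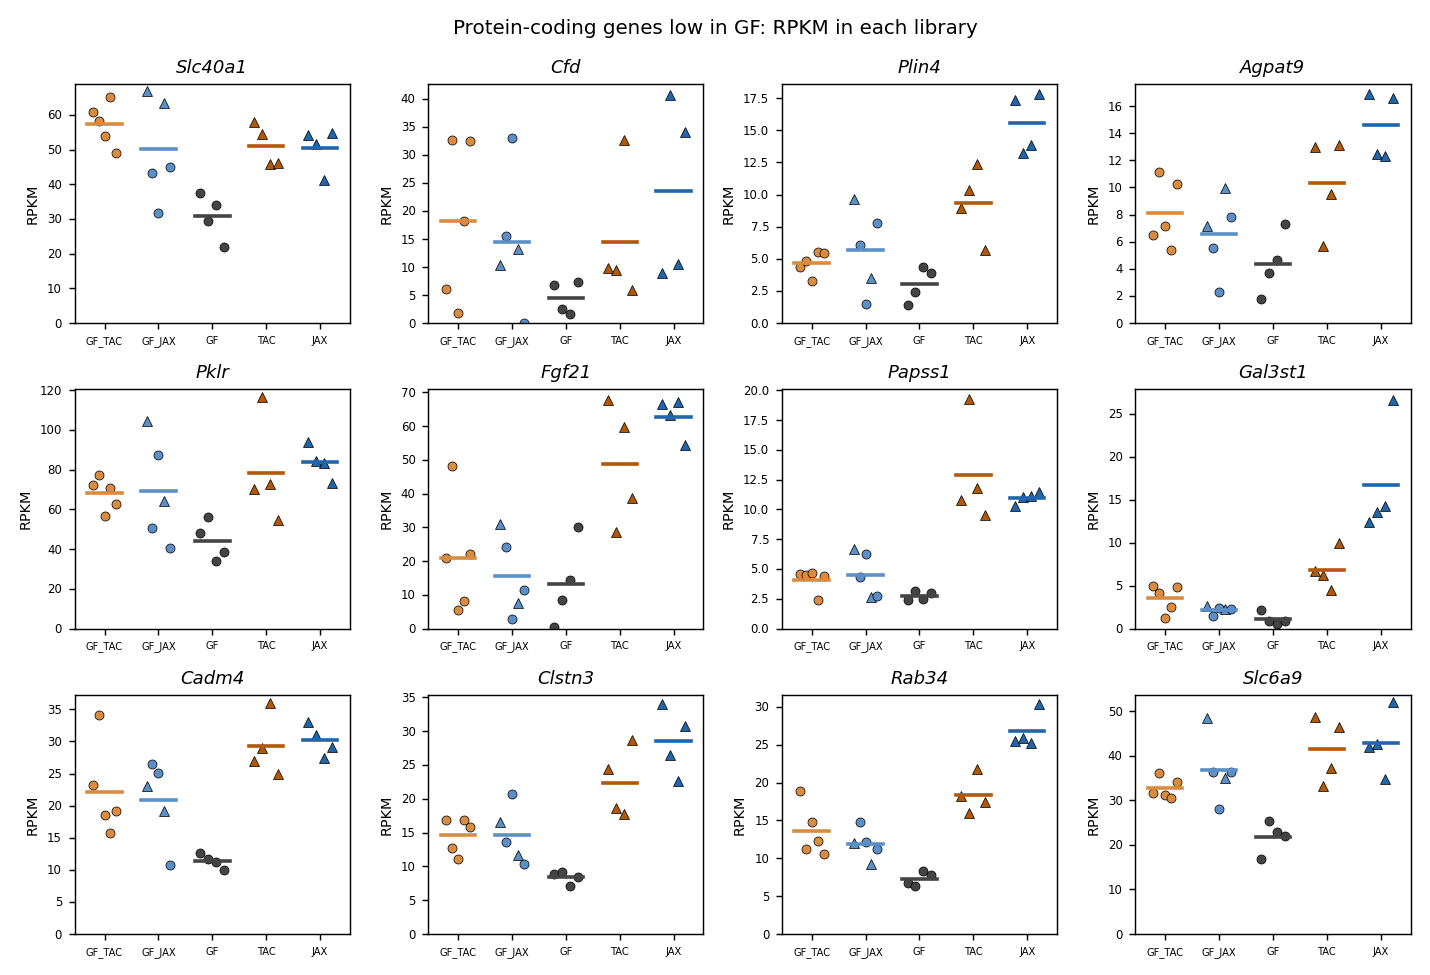
RPKM of 12 protein-coding genes low in GF in each library (points; y axes start at 0), with group means (lines) for GF_TAC, GF_JAX, GF, TAC and JAX; triangles mark a positive and circles a negative length slope. GF is lowest by its mean in every panel. On this linear RPKM axis, recipient means lie nearer to GF than to either vendor group in Papss1, Gal3st1, Fgf21, Plin4 and Clstn3.

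Papss1 and Gal3st1 belong to sulfation: the enzyme encoded by Papss1 makes the sulfate donor PAPS, and that of Gal3st1 transfers sulfate to galactosylceramide. Papss1 had 4.61, 4.48, 4.695, 2.37 and 4.38 RPKM in GF_TAC, 6.65, 4.303, 6.25, 2.66 and 2.75 in GF_JAX and 2.397, 3.14, 2.46 and 3.01 in GF. In vendor mice, Papss1 had 10.7, 19.2, 11.8 and 9.55 RPKM in TAC and 10.3, 11.05, 11.1 and 11.5 in JAX. Every recipient library was below every vendor library, and Papss1 was lower in GF_TAC than in TAC, with a log2 difference of -1.42 ± 0.22 (SE, adjusted p = 0.000421) and lower in GF_JAX than in JAX, with a log2 difference of -1.18 ± 0.22 (SE, adjusted p = 0.00174). Gal3st1 had 4.97, 4.13, 1.18, 2.53 and 4.86 RPKM in GF_TAC, 2.64, 1.45, 2.398, 2.24 and 2.32 in GF_JAX and 2.18, 0.918, 0.554 and 0.923 in GF. In vendor mice, Gal3st1 had 6.66, 6.24, 4.48 and 9.98 RPKM in TAC and 12.4, 13.6, 14.3 and 26.5 in JAX. GF_JAX lay close to GF and far below JAX, a difference of -2.41 ± 0.28 (SE, adjusted p = 1.8e-05), and GF_TAC was lower than TAC, with a difference of -0.84 ± 0.28 (SE, adjusted p = 0.0376, lost when any of 5 libraries was left out, at up to 0.137 without TAC 4). Of the log2 distance between GF and the vendor mice, GF_TAC covered 23.01% and GF_JAX 29.4% for Papss1, and GF_TAC covered 55.3% and GF_JAX 20.5% for Gal3st1. Chst13, a chondroitin sulfotransferase, was the first gene outside the list.

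Secreted proteins were in both lists. Orm3, an orosomucoid of the acute phase family, was high in GF with 14.2, 35.6, 35.9, 29.2 and 25.9 RPKM in GF_TAC, 3.303, 28.3, 26.4, 25.8 and 49.9 in GF_JAX and 49, 27.1, 59.5 and 47.3 in GF. In vendor mice, Orm3 had 4.62, 13.01, 4.23 and 12.8 RPKM in TAC and 0, 0.854, 4.09 and 2.31 in JAX. Of the recipients 5 of 10 libraries lay in the range of GF, and GF_JAX 1 lay in the range of JAX. Orm3 was higher in GF_JAX than in JAX, with a log2 difference of 3.19 ± 0.55 (SE, adjusted p = 0.000906) and higher in GF_TAC than in TAC, with a log2 difference of 1.68 ± 0.55 (SE, adjusted p = 0.0332, lost when any of 5 libraries was left out, at up to 0.103 without TAC 3). Reads of Orm1, Orm2 and Orm3 may have been split between near-identical copies. Serpina7, thyroxine-binding globulin, had 9.01, 34.8, 12.3, 8.67 and 4.86 RPKM in GF_TAC, 18.2, 5.66, 13.2, 6.19 and 6.399 in GF_JAX and 17.2, 14.2, 21.6 and 17.9 in GF. In vendor mice, Serpina7 had 4.51, 15.3, 1.85 and 1.79 RPKM in TAC and 3.899, 7.29, 5.77 and 4.398 in JAX. GF_JAX 1 and TAC 2 lay in the range of GF and GF_TAC 2 lay above it. The difference of GF_TAC from TAC was 1.24 ± 0.48 (SE, adjusted p = 0.0633).

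Tff3, a trefoil peptide of mucosa, had the highest score of the protein-coding genes high in GF (1.34), with 17.4, 41.6, 36.5, 32.96 and 35.8 RPKM in GF_TAC, 28, 41.02, 13.6, 5.07 and 76.03 in GF_JAX and 183, 53.9, 68.8 and 65.2 in GF. In vendor mice, Tff3 had 7.46, 7.84, 35.1 and 18.8 RPKM in TAC and 22.4, 20.3, 60.1 and 24.8 in JAX. GF 1 stood far above the other GF libraries, and JAX 3 and GF_JAX 5 reached into the range of GF. The differences from vendor mice were 1.10 ± 0.57 (SE, adjusted p = 0.165) in GF_TAC minus TAC and -0.30 ± 0.57 (SE, adjusted p = 0.769) in GF_JAX minus JAX. Insl3, a relaxin-family hormone of Leydig cells, had 5.64, 7.42, 9.21, 10.3 and 6.199 RPKM in GF_TAC, 9.85, 5.07, 2.68, 1.67 and 3.41 in GF_JAX and 7.45, 4.64, 21.3 and 20.6 in GF. In vendor mice, Insl3 had 1.32, 0, 0.012 and 0.0051 RPKM in TAC and 1.14, 5.06, 5.33 and 0.533 in JAX. It was near 0 in 3 of 4 TAC libraries, and was higher in GF_TAC than in TAC, with a log2 difference of 2.79 ± 0.47 (SE, adjusted p = 0.000804) while the difference of GF_JAX from JAX was 0.55 ± 0.47 (SE, adjusted p = 0.455). Igfbp6, a binding protein of insulin-like growth factors, had 10.2, 9.61, 6.52, 6.02 and 19.6 RPKM in GF_TAC, 3.45, 11.9, 15.04, 1.17 and 7.27 in GF_JAX and 13.01, 13.4, 6.87 and 25.3 in GF. In vendor mice, Igfbp6 had 6.89, 5.89, 4.79 and 1.58 RPKM in TAC and 3.32, 4.46, 6.67 and 3.62 in JAX. Neither of its differences from vendor mice passed.

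Wfdc2, a secreted protease inhibitor-like protein, was low in GF with 18.7, 31.5, 16.6, 18.2 and 19.7 RPKM in GF_TAC, 15.9, 24.3, 17.6, 7.603 and 13.1 in GF_JAX and 12.3, 8.81, 5.47 and 7.82 in GF. In vendor mice, Wfdc2 had 26.8, 30.4, 34.3 and 29.9 RPKM in TAC and 52.7, 53.5, 44.5 and 62.6 in JAX. The groups kept the order of GF lowest and JAX highest, with every JAX library above all others. Wfdc2 was lower in GF_JAX than in JAX, with a log2 difference of -1.78 ± 0.24 (SE, adjusted p = 7.85e-05), and GF_TAC minus TAC was -0.55 ± 0.24 (SE, adjusted p = 0.0993). Serpina12, or vaspin, a serpin of fat and liver, had 22.1, 15.9, 16.1, 31.3 and 9.34 RPKM in GF_TAC, 21.2, 33.9, 38.1, 9.096 and 18.1 in GF_JAX and 15.3, 12.4, 10.8 and 11.2 in GF. In vendor mice, Serpina12 had 13.7, 38.7, 23.2 and 9.69 RPKM in TAC and 20.1, 17.9, 19.5 and 18.6 in JAX. GF lay inside the ranges of TAC, GF_TAC and GF_JAX. Lgals1, the galactose-binding galectin-1, had 100.4, 59.5, 71.4, 100.3 and 69.6 RPKM in GF_TAC, 86.7, 74.1, 119, 26.8 and 77.5 in GF_JAX and 58.6, 50.3, 46.9 and 39.6 in GF. In vendor mice, Lgals1 had 79.3, 83.6, 55.2 and 55.5 RPKM in TAC and 84.98, 85.6, 57.5 and 83.2 in JAX. GF_JAX 4 lay below all GF libraries and TAC 3, TAC 4 and JAX 3 lay in their range, and neither difference from vendor mice passed. Ccl6, a chemokine of myeloid cells, had 6.8, 7.37, 9.11, 7.77 and 8.75 RPKM in GF_TAC, 11.4, 10.96, 7.72, 10.8 and 12.8 in GF_JAX and 14.3, 14.6, 14.3 and 14.3 in GF. In vendor mice, Ccl6 had 4.86, 10.8, 11.7 and 10.4 RPKM in TAC and 5.53, 8.64, 4.94 and 7.97 in JAX. The GF values spanned less than 1 RPKM and lay above all 18 others. Ccl6 was higher in GF_JAX than in JAX, with a log2 difference of 0.61 ± 0.19 (SE, adjusted p = 0.0389, lost when any of 5 libraries was left out, at up to 0.123 without JAX 3, and at 0.117 with library type as a term).

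Socs2, which growth hormone induces through STAT5 and which limits that signal, had 9.77, 25.1, 14.8, 7.28 and 6.21 RPKM in GF_TAC, 6.501, 7.66, 28.3, 11.95 and 7.64 in GF_JAX and 71.8, 24.5, 18.2 and 8.09 in GF. In vendor mice, Socs2 had 9.07, 22.4, 9.49 and 26.5 RPKM in TAC and 16.7, 22.9, 6.88 and 9.25 in JAX. GF 1 alone stood above all other libraries, and the other 3 GF libraries lay among them. The male-biased list held Socs2 and Serpina12, on opposite sides, and the female-biased list held Hamp2.

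**Figure D5:**
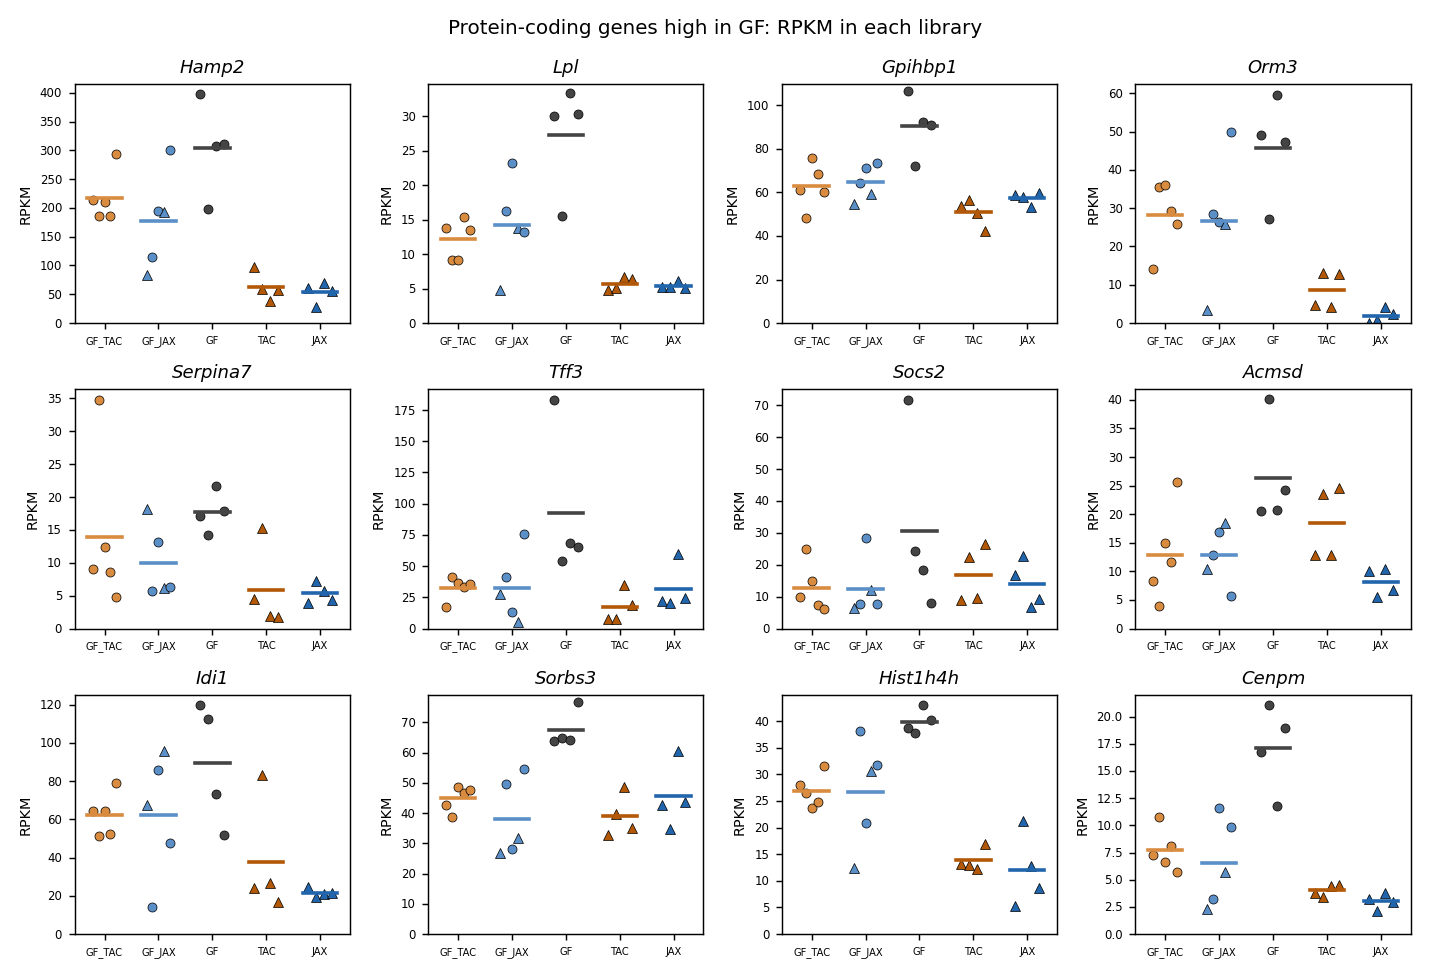
RPKM of 12 protein-coding genes high in GF in each library (points; y axes start at 0), with group means (lines) for GF_TAC, GF_JAX, GF, TAC and JAX; triangles mark a positive and circles a negative length slope. GF is highest by its mean in every panel, GF 1 lies far above the other libraries in Tff3 and Socs2, and in Hamp2 and Orm3 every recipient library but GF_JAX 1 lies above all vendor libraries.

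Slc6a9, the glycine transporter GlyT1, was low in GF with 31.6, 36.2, 31.1, 30.6 and 34.2 RPKM in GF_TAC, 48.4, 36.4, 28.1, 34.9 and 36.3 in GF_JAX and 16.8, 25.4, 22.97 and 21.9 in GF. In vendor mice, Slc6a9 had 48.8, 33.2, 37.2 and 46.4 RPKM in TAC and 41.95, 42.6, 34.8 and 51.9 in JAX. All 4 GF libraries lay below the other 18, and the recipients did not pass against vendor mice, with -0.32 ± 0.14 (SE, adjusted p = 0.114) in GF_TAC minus TAC and -0.22 ± 0.14 (SE, adjusted p = 0.324) in GF_JAX minus JAX. Rhbg, an ammonium transporter of hepatocytes around the central vein, was high in GF with 29.8, 18.5, 33.3, 39.9 and 31.5 RPKM in GF_TAC, 16.7, 34.96, 34.6, 23.8 and 40.8 in GF_JAX and 37.4, 53.2, 35.1 and 43.97 in GF. In vendor mice, Rhbg had 22.3, 24.1, 29.4 and 30.6 RPKM in TAC and 13.6, 18.5, 15.4 and 15.3 in JAX. GF_TAC and GF_JAX overlapped GF, and Rhbg was higher in GF_JAX than in JAX, with a log2 difference of 0.84 ± 0.22 (SE, adjusted p = 0.0157, lost at 0.408 with library type as a term). Acmsd, which turns the tryptophan breakdown product away from NAD synthesis, was high in GF with 8.29, 3.999, 15.03, 11.6 and 25.6 RPKM in GF_TAC, 10.5, 12.8, 16.8, 18.4 and 5.63 in GF_JAX and 20.6, 40.1, 20.7 and 24.3 in GF. In vendor mice, Acmsd had 12.8, 23.6, 12.9 and 24.7 RPKM in TAC and 10.1, 5.53, 10.5 and 6.69 in JAX. GF_TAC 5 and both high TAC libraries lay inside the range of GF, and neither difference from vendor mice passed. Slc17a4, an anion transporter, had 15.7, 12.4, 15.5, 15.8 and 16.8 RPKM in GF_TAC, 11.7, 8.45, 15.5, 13.4 and 10.1 in GF_JAX and 21.05, 19.9, 17.7 and 22.05 in GF. In vendor mice, Slc17a4 had 10.5, 17.4, 7.702 and 12.2 RPKM in TAC and 9.65, 12.8, 13.4 and 12.2 in JAX. All GF libraries lay above the other 18. Lhpp, a phosphatase that acts on phosphohistidine, had 107, 133, 128, 127 and 142 RPKM in GF_TAC, 115, 123, 122, 108 and 158 in GF_JAX and 210.4, 168, 189 and 231 in GF. In vendor mice, Lhpp had 139.6, 128, 140.1 and 161 RPKM in TAC and 150.4, 122, 143 and 136 in JAX. GF lay above all others, and the differences between recipients and vendor mice did not pass, with -0.16 ± 0.11 in GF_TAC minus TAC and -0.14 ± 0.11 in GF_JAX minus JAX.

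Sdr9c7, a short-chain dehydrogenase, was low in GF with 26.4, 16.5, 21.96, 26.9 and 23.96 RPKM in GF_TAC, 33.9, 31.3, 34.6, 30.7 and 18.4 in GF_JAX and 9.98, 23.9, 12.3 and 12.1 in GF. In vendor mice, Sdr9c7 had 39.9, 43.2, 43.1 and 34.8 RPKM in TAC and 30.99, 35.4, 31.6 and 27.7 in JAX. GF 2 stood above the other GF libraries and within the recipients. It was lower in GF_TAC than in TAC, with a log2 difference of -0.79 ± 0.20 (SE, adjusted p = 0.009), and in GF_JAX minus JAX the difference was -0.10 ± 0.20 (SE, adjusted p = 0.772). Isyna1, which makes inositol phosphate from glucose phosphate, had 17.6, 16.4, 16.3, 11.97 and 13.2 RPKM in GF_TAC, 11.2, 15.9, 26.2, 12.05 and 13.3 in GF_JAX and 9.703, 8.903, 9.36 and 9.99 in GF. In vendor mice, Isyna1 had 11.9, 28.8, 13.9 and 17.3 RPKM in TAC and 22.3, 16.9, 21.1 and 18.8 in JAX. All GF libraries lay below the other 18. Pyroxd2, a mitochondrial oxidoreductase, had 10.7 to 15.5 RPKM in GF_TAC, 12.3 to 23.03 in GF_JAX, 5.28 to 11.3 in GF, 12.8 to 15.5 in TAC and 15.2 to 18.5 in JAX. Man2b2, a lysosomal alpha-mannosidase, had 31.9, 33.2, 33, 29.3 and 31.1 RPKM in GF_TAC, 39.2, 32.6, 26.2, 41.4 and 33.9 in GF_JAX and 21.9, 29.2, 20.4 and 20.8 in GF. In vendor mice, Man2b2 had 37.3, 30.8, 45.4 and 43.01 RPKM in TAC and 41.8, 49.6, 49.5 and 47.4 in JAX. It was low in GF, with GF_JAX 3 inside the range of GF, and lower in GF_JAX than in JAX, with a log2 difference of -0.44 ± 0.13 (SE, adjusted p = 0.0267, lost when any of 5 libraries was left out, at up to 0.0734 without GF_JAX 3, and at 0.412 with library type as a term).

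Rab34, Rab3d and Unc119, all low in GF, act in membrane traffic. Rab34, a small GTPase of the Golgi and lysosome, had 18.8, 11.2, 14.8, 12.2 and 10.5 RPKM in GF_TAC, 12.03, 14.8, 12.1, 9.21 and 11.2 in GF_JAX and 6.77, 6.34, 8.36 and 7.75 in GF. In vendor mice, Rab34 had 18.2, 15.9, 21.8 and 17.4 RPKM in TAC and 25.5, 25.9, 25.2 and 30.4 in JAX. GF lay below all other libraries and JAX above all others, and Rab34 was lower in GF_JAX than in JAX, with a log2 difference of -1.12 ± 0.15 (SE, adjusted p = 6.01e-05) and in GF_TAC than in TAC, with a log2 difference of -0.43 ± 0.15 (SE, adjusted p = 0.0364, lost when any of 6 libraries was left out, at up to 0.122 without TAC 3). Rab3d, a GTPase of secretory vesicles, had 6.21, 6.23, 6.34, 5.45 and 5.87 RPKM in GF_TAC, 5.48, 5.602, 6.48, 4.85 and 2.15 in GF_JAX and 1.44, 4.18, 3.95 and 3.03 in GF. In vendor mice, Rab3d had 8.55, 6.16, 8.598 and 8.75 RPKM in TAC and 10.8, 11.7, 12.5 and 12.5 in JAX. GF_JAX 5 was the single library inside the range of GF, and Rab3d was lower in GF_JAX than in JAX, with a log2 difference of -1.18 ± 0.21 (SE, adjusted p = 0.00134). Unc119, which carries lipid-modified proteins, had 36.1, 22.2, 20.5, 34.3 and 25.04 RPKM in GF_TAC, 20.9, 30.2, 22.1, 18.3 and 19.5 in GF_JAX and 15.2, 14.01, 18.6 and 9.72 in GF. In vendor mice, Unc119 had 40.6, 29.7, 30.1 and 30.2 RPKM in TAC and 47.6, 54.6, 50.6 and 51.1 in JAX. It was lower in GF_JAX than in JAX, with a log2 difference of -1.18 ± 0.18 (SE, adjusted p = 0.000223). Every JAX library of Unc119 was above every library of the other groups.

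Clstn3, calsyntenin-3, a membrane protein whose shorter form acts on lipid droplets of fat cells in mice, had 16.8, 12.7, 11.1, 16.9 and 15.9 RPKM in GF_TAC, 16.6, 13.7, 20.7, 11.7 and 10.3 in GF_JAX and 8.905, 9.21, 7.101 and 8.403 in GF. In vendor mice, Clstn3 had 24.4, 18.7, 17.7 and 28.7 RPKM in TAC and 34.05, 26.5, 22.6 and 30.8 in JAX. GF lay below all others, and Clstn3 was lower in GF_JAX than in JAX, with a log2 difference of -0.94 ± 0.18 (SE, adjusted p = 0.00208) and in GF_TAC than in TAC, with a log2 difference of -0.57 ± 0.18 (SE, adjusted p = 0.0277, lost when any of 4 libraries was left out, at up to 0.111 without TAC 4). Cadm4, a cell adhesion molecule of the immunoglobulin family, had 23.2, 34.1, 18.5, 15.8 and 19.2 RPKM in GF_TAC, 23, 26.5, 25.05, 19.2 and 10.8 in GF_JAX and 12.6, 11.7, 11.2 and 10.04 in GF. In vendor mice, Cadm4 had 26.99, 28.9, 36 and 25 RPKM in TAC and 33.01, 31.1, 27.4 and 29.1 in JAX. GF_JAX 5 was the single library of another group inside the range of GF. Its differences from vendor mice did not pass, with -0.42 ± 0.21 (SE, adjusted p = 0.142) in GF_TAC minus TAC and -0.57 ± 0.21 (SE, adjusted p = 0.0717) in GF_JAX minus JAX. Fam102a had 10.4, 8.36, 8.58, 8.22 and 11.99 RPKM in GF_TAC, 19.1, 12.1, 12.8, 16.7 and 11.3 in GF_JAX and 5.04, 8.08, 6.53 and 6.66 in GF. In vendor mice, Fam102a had 23.2, 13.2, 20.1 and 20.6 RPKM in TAC and 19.7, 33.2, 22.6 and 20.1 in JAX. GF lay below all other libraries, and Fam102a was lower in GF_TAC than in TAC, with a log2 difference of -0.93 ± 0.18 (SE, adjusted p = 0.00214) and in GF_JAX than in JAX, with a log2 difference of -0.69 ± 0.18 (SE, adjusted p = 0.0191, lost when any of 2 libraries was left out, at up to 0.0825 without JAX 2, and at 0.332 with library type as a term). Fam131c had 18.1, 20.3, 15.6, 10.04 and 18.6 RPKM in GF_TAC, 19.4, 22, 15.1, 8.096 and 8.896 in GF_JAX and 5.97, 8.9, 9.68 and 13.5 in GF. In vendor mice, Fam131c had 36.9, 31.3, 30.2 and 36.8 RPKM in TAC and 50.1, 37.8, 32.3 and 46.6 in JAX. Recipients and vendor mice did not overlap. It was lower in GF_TAC than in TAC, with a log2 difference of -1.02 ± 0.26 (SE, adjusted p = 0.00816) and in GF_JAX than in JAX, with a log2 difference of -1.52 ± 0.26 (SE, adjusted p = 0.00068). Dapk2, a calmodulin-dependent kinase of cell death and autophagy, had 20.3, 15.9, 13.3, 16.1 and 14.9 RPKM in GF_TAC, 15.8, 19.3, 10.8, 7.304 and 10.5 in GF_JAX and 5.63, 7.47, 9.02 and 9.18 in GF. In vendor mice, Dapk2 had 16.2, 13.8, 14.03 and 12.9 RPKM in TAC and 18.9, 17.3, 21.4 and 20.1 in JAX. GF_JAX 4 lay in the range of GF. Dapk2 was lower in GF_JAX than in JAX, with a log2 difference of -0.64 ± 0.19 (SE, adjusted p = 0.033, lost when any of 6 libraries was left out, at up to 0.0834 without JAX 4, and at 0.0654 with library type as a term), while GF_TAC minus TAC was 0.16 ± 0.19 (SE, adjusted p = 0.561). Tnks1bp1, a binding partner of tankyrase, had 17, 20.3, 16.8, 14.6 and 17.1 RPKM in GF_TAC, 18.6, 17.1, 14.9, 18.1 and 16.2 in GF_JAX and 11.3, 13.4, 13.1 and 11.2 in GF. In vendor mice, Tnks1bp1 had 22.1, 16.3, 21.5 and 20.1 RPKM in TAC and 22.6, 21.3, 24.8 and 25.4 in JAX. GF lay below all others, and Tnks1bp1 was lower in GF_JAX than in JAX, with a log2 difference of -0.45 ± 0.10 (SE, adjusted p = 0.00763, lost at 0.12 with library type as a term).

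Members that act in transcription or chromatin stood in both lists. Pcgf2, a Polycomb group ring finger protein, was low in GF with 9.13, 6.58, 8.91, 5.06 and 5.44 RPKM in GF_TAC, 4.36, 5.26, 7.598, 2.74 and 6.13 in GF_JAX and 2.67, 2.3, 2.59 and 3.35 in GF. In vendor mice, Pcgf2 had 5.74, 6.18, 6.27 and 5.99 RPKM in TAC and 4.89, 6.87, 7.56 and 8.07 in JAX. GF lay below the recipients except GF_JAX 4, whose value of 2.74 fell in its range. Foxq1, a forkhead factor, had 6.09 to 18.03 RPKM in GF_TAC, 7.56 to 15.5 in GF_JAX, 3.76 to 9.79 in GF, 7.56 to 13.01 in TAC and 11.98 to 13.99 in JAX. Foxp1, another forkhead factor, was high in GF with 7.88, 7.47, 8.38, 8.299 and 6.78 RPKM in GF_TAC, 5.104, 8.13, 5.43, 5.03 and 7.75 in GF_JAX and 12.5, 9.01, 11.4 and 11.2 in GF. In vendor mice, Foxp1 had 6.26, 6.17, 5.93 and 4.59 RPKM in TAC and 5.53, 5.67, 7.13 and 5.099 in JAX. GF lay above all others. Zfp703, Gse1 and Tob2, further nuclear regulators low in GF, did not differ beyond the threshold between recipients and vendor mice, with differences of -0.22 ± 0.19, 0.21 ± 0.23 and -0.24 ± 0.20 in GF_TAC minus TAC and of -0.14 ± 0.19, 0.01 ± 0.23 and -0.17 ± 0.20 in GF_JAX minus JAX. Usp2, a deubiquitinase with a daily rhythm in liver, had 7.55, 4.94, 4.804, 12.1 and 12.2 RPKM in GF_TAC, 9.63, 15.5, 3.59, 10.8 and 22.04 in GF_JAX and 2.77, 7.11, 4.53 and 6.26 in GF. In vendor mice, Usp2 had 6.97, 6.82, 19.8 and 10.02 RPKM in TAC and 4.44, 11.97, 15.5 and 9.29 in JAX. Its ranges overlapped in all groups, between 2.77 RPKM in GF 1 and 22.04 RPKM in GF_JAX 5. Tef, a clock output factor, stood just outside the list.

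Cenpm, a centromere protein high in GF, had 7.29, 10.8, 6.66, 8.14 and 5.69 RPKM in GF_TAC, 2.34, 3.22, 11.6, 5.72 and 9.87 in GF_JAX and 16.8, 21.1, 11.8 and 18.97 in GF. In vendor mice, Cenpm had 3.74, 3.44, 4.401 and 4.55 RPKM in TAC and 3.21, 2.13, 3.77 and 2.95 in JAX. GF lay above all others. For Cenpm, the differences did not pass, with 0.77 ± 0.29 (SE, adjusted p = 0.06) in GF_TAC minus TAC and 0.74 ± 0.29 (SE, adjusted p = 0.0913) in GF_JAX minus JAX. Hist1h4h, also high in GF and one of many histone H4 genes of near-identical coding sequence, had 27.97, 26.6, 23.7, 24.8 and 31.6 RPKM in GF_TAC, 12.3, 38.1, 20.9, 30.7 and 31.8 in GF_JAX and 38.7, 37.7, 43.1 and 40.2 in GF. In vendor mice, Hist1h4h had 13.1, 12.95, 12.3 and 16.9 RPKM in TAC and 5.28, 21.3, 12.7 and 8.62 in JAX. GF_JAX 2 reached the range of GF. It was higher in GF_TAC than in TAC, with a log2 difference of 0.92 ± 0.28 (SE, adjusted p = 0.0238, lost when any of 2 libraries was left out, at up to 0.0623 without TAC 3), and in GF_JAX than in JAX, with a log2 difference of 1.16 ± 0.28 (SE, adjusted p = 0.0109, lost at 0.177 with library type as a term). The snoRNA host genes Snhg5 and Snhg12 were high in GF as well. Snhg5 had 17.1, 9.61, 12.4, 12.97 and 10.05 RPKM in GF_TAC, 6.399, 9.59, 5.07, 5.53 and 11.4 in GF_JAX and 16.4, 19.1, 19.99 and 17.1 in GF. In vendor mice, Snhg5 had 6.51, 5.497, 4.97 and 8.52 RPKM in TAC and 9.46, 6.92, 10.4 and 6.91 in JAX. GF_TAC 1 alone reached the range of GF. Snhg5 was higher in GF_TAC than in TAC, with a log2 difference of 0.86 ± 0.20 (SE, adjusted p = 0.00586), with GF_JAX minus JAX at -0.17 ± 0.20 (SE, adjusted p = 0.608). Snhg12 had 56.2, 52.2, 44.8, 54.5 and 42.01 RPKM in GF_TAC, 35.2, 58.8, 27.2, 28.7 and 39.5 in GF_JAX and 73.98, 47.5, 72.7 and 83.5 in GF. In vendor mice, Snhg12 had 41.2, 25.8, 33.03 and 35.4 RPKM in TAC and 40.1, 43.6, 29.01 and 37.7 in JAX. GF overlapped both recipient groups. Snhg12 was higher in GF_TAC than in TAC, with a log2 difference of 0.56 ± 0.19 (SE, adjusted p = 0.0422, lost when any of 7 libraries was left out, at up to 0.13 without TAC 2).

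Sorbs3, vinexin, an adaptor of the cytoskeleton, had 42.5, 38.8, 48.7, 46.7 and 47.6 RPKM in GF_TAC, 26.8, 49.5, 28.1, 31.6 and 54.7 in GF_JAX and 63.97, 64.9, 64.1 and 76.7 in GF. In vendor mice, Sorbs3 had 32.7, 39.6, 48.7 and 35 RPKM in TAC and 42.8, 34.8, 60.6 and 43.8 in JAX. GF lay above all others, and the differences between recipients and vendor mice did not pass, with 0.21 ± 0.18 in GF_TAC minus TAC and -0.28 ± 0.18 in GF_JAX minus JAX. Ndrg1, induced by hypoxia and stress, had 26.03, 31.2, 35.8, 21.2 and 32.3 RPKM in GF_TAC, 29.6, 16.2, 23.7, 27.4 and 30.3 in GF_JAX and 35.4, 40.9, 39.8 and 42.02 in GF. In vendor mice, Ndrg1 had 18.8, 14.8, 12.8 and 17.7 RPKM in TAC and 11.5, 20.6, 14.2 and 15.2 in JAX. It was higher in GF_TAC than in TAC, with a log2 difference of 0.83 ± 0.18 (SE, adjusted p = 0.00354) and in GF_JAX than in JAX, with a log2 difference of 0.69 ± 0.18 (SE, adjusted p = 0.0159, lost at 0.0548 without JAX 1). Crip1, a LIM domain protein, had 26.6, 29.5, 32.9, 36.3 and 58.7 RPKM in GF_TAC, 25.4, 32.2, 82.2, 15.9 and 32.9 in GF_JAX and 53.3, 35.8, 44.2 and 62.7 in GF. In vendor mice, Crip1 had 12.5, 16.4, 25.01 and 19.7 RPKM in TAC and 16.7, 21.2, 18.1 and 15.01 in JAX. GF_JAX 3 stood above all GF libraries, and Crip1 was higher in GF_TAC than in TAC, with a log2 difference of 0.95 ± 0.32 (SE, adjusted p = 0.0344, lost when any of 6 libraries was left out, at up to 0.11 without TAC 1).

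Siva1, an apoptosis factor, had 45.6, 40.9, 34.6, 39.8 and 37.5 RPKM in GF_TAC, 24.4, 34.6, 37.8, 30.9 and 31.96 in GF_JAX and 79.4, 43.7, 53.8 and 46.5 in GF. In vendor mice, Siva1 had 22.7, 33.5, 32.3 and 26.8 RPKM in TAC and 29.9, 27.8, 34 and 44.9 in JAX. GF_TAC 1 and JAX 4 lay in the range of GF, and Siva1 was higher in GF_TAC than in TAC, with a log2 difference of 0.46 ± 0.17 (SE, adjusted p = 0.0486, lost when any of 14 libraries was left out, at up to 0.158 without TAC 1). Ropn1l, a protein of the sperm tail, had 54.2, 39.2, 38.4, 49.4 and 48.1 RPKM in GF_TAC, 26.6, 35.6, 49.2, 38.8 and 34.5 in GF_JAX and 82.6, 50.6, 62.4 and 52.9 in GF. In vendor mice, Ropn1l had 20.2, 37.7, 23.3 and 27.4 RPKM in TAC and 31.8, 23.02, 35.4 and 28.3 in JAX. GF_TAC 1 lay in the range of GF, and Ropn1l was higher in GF_TAC than in TAC, with a log2 difference of 0.76 ± 0.18 (SE, adjusted p = 0.00688). Lrrc51 had 10.7, 8.89, 8.42, 12.7 and 12.8 RPKM in GF_TAC, 6.38, 11.4, 8.99, 3.83 and 13.3 in GF_JAX and 16.8, 12.7, 14.5 and 12.5 in GF. In vendor mice, Lrrc51 had 6.43, 2.99, 3.27 and 4.52 RPKM in TAC and 7.63, 7.899, 8.79 and 10.3 in JAX. No GF_TAC library overlapped TAC, and the difference was 1.17 ± 0.24 (SE, adjusted p = 0.00285). In each of Siva1, Ropn1l and Lrrc51 the GF_JAX libraries did not differ from JAX beyond the threshold (-0.09 ± 0.17, 0.30 ± 0.18 and -0.07 ± 0.24). Ints7, an Integrator subunit low in GF, had 4.499, 5.06, 4.49, 4.98 and 4.71 RPKM in GF_TAC, 8.12, 4.31, 3.78, 8.53 and 6.03 in GF_JAX and 3.46, 5.53, 4.11 and 1.07 in GF. In vendor mice, Ints7 had 9.55, 6.76, 9.16 and 7.57 RPKM in TAC and 8.92, 8.63, 7.11 and 8.68 in JAX. All 5 GF_TAC libraries lay in the range of GF, and Ints7 was lower in GF_TAC than in TAC, with a log2 difference of -0.68 ± 0.24 (SE, adjusted p = 0.049, lost when any of 16 libraries was left out, at up to 0.119 without TAC 1). Ly6d, a surface marker of early B cells, had 5.53, 9.72, 1.72, 4.49 and 17.9 RPKM in GF_TAC, 5.796, 9.95, 1.403, 6.56 and 6.78 in GF_JAX and 5.46, 1.07, 1.62 and 12.1 in GF. In vendor mice, Ly6d had 8.49, 8.11, 9.896 and 19.5 RPKM in TAC and 20.7, 29.5, 16.1 and 20.9 in JAX. Values spread widely within GF and the recipients, and Ly6d was lower in GF_JAX than in JAX, with a log2 difference of -1.81 ± 0.53 (SE, adjusted p = 0.0295, lost when any of 4 libraries was left out, at up to 0.0847 without JAX 2, and at 0.175 with library type as a term).

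Several members had values near 0 beside much higher ones in the same group. Rpl26, a ribosomal protein with many processed copies, had 79.9, 91.4, 35.5, 0 and 0.0085 RPKM in GF_TAC, 0.0088, 51.2, 98.9, 0.0091 and 42.8 in GF_JAX and 33.02, 97.3, 30.9 and 52.3 in GF. In vendor mice, Rpl26 had 0.0116, 0.0086, 92.04 and 32.5 RPKM in TAC and 66.8, 19.8, 24.99 and 30.3 in JAX. The class I gene H2-Q6 had 15.1, 0.0451, 2.09, 4.67 and 5.61 RPKM in GF_TAC, 0.0177, 13.7, 31.5, 7.79 and 12.7 in GF_JAX and 17.05, 0.013, 0.286 and 0.0317 in GF. In vendor mice, H2-Q6 had 7.597, 0.0432, 11.3 and 0.005 RPKM in TAC and 3.12, 9.001, 41.4 and 8.71 in JAX. Of the GF libraries 3 were near 0, and TAC 2, TAC 4, GF_TAC 2 and GF_JAX 1 were near 0 as well. The pseudogenes Apoo-ps and Atp6v0c-ps2 also mixed values near 0 with higher ones, with 0.0018, 15.6, 0 and 0 RPKM of Apoo-ps and 15.5, 23.6, 66.4 and 0.477 RPKM of Atp6v0c-ps2 in GF. Reads of such genes may have been assigned to near-identical copies, and these values are uncertain. Apoo-ps was lower in GF_TAC than in TAC, with a log2 difference of -2.62 ± 0.94 (SE, adjusted p = 0.0471, lost when any of 14 libraries was left out, at up to 0.123 without GF_TAC 4). Pet117, a factor of cytochrome oxidase assembly with the highest protein-coding score in the list low in GF (1.18), had 14.01, 15.9, 17.2 and 0 RPKM in GF, listed at 0 in GF 4, and the other 3 GF libraries lay within the range of GF_JAX (13.05 to 38.6).

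The other protein-coding members low in GF were Mapre2, Cox6b2, Tnfrsf14, Nhlrc3, Nav2, Scfd2 and Ppapdc1b, with scores between 0.42 and 0.54. Tnfrsf14, a receptor of T cell costimulation, and Nav2 had differences above 0 between recipients and vendor mice (0.25 ± 0.31 and 0.11 ± 0.17 in GF_TAC minus TAC, 0.36 ± 0.31 and 0.02 ± 0.17 in GF_JAX minus JAX, none passing). Those high in GF were Cdpf1, Krt23, Ube2u, Ccdc163, Zswim7, Gngt2, Ubald2 and Gemin6, with scores between 0.41 and 0.79, and none passed between recipients and vendor mice. The remaining entries high in GF were Rps4l, Rab26os and LOC100504703, with scores of 0.43, 0.63 and 0.56.

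Several members belonged to lists of pathway genes: Usp2 to clock output, Fgf21 to the ATF4 and PPARa lists, Orm3 to the acute phase, H2-Q6 to antigen presentation, Idi1 to cholesterol synthesis, Pklr to fatty acid synthesis, Slc40a1 and Hamp2 to iron handling, Serpina12 and Socs2 to male-biased genes and Hamp2 to female-biased genes. The other genes of these lists, which the rule did not choose, were compared between recipients and GF, in 2 comparisons that share the GF libraries. By limma, 0 of them passed in GF_TAC minus GF, beside 0.204% of all genes. In GF_JAX minus GF 1 passed, beside 0.612% of all genes and 0.269% in the lower direction. That gene, named after its value was seen, was the female-biased Atp6v0d2, a subunit of the vacuolar proton pump (-1.29 ± 0.27, SE, adjusted p = 0.0403). Genes with an unadjusted p under 0.05 in GF_TAC minus GF and in GF_JAX minus GF made up 8.49% and 15.9% of all genes. In the lists they numbered 5 and 5 of 17 in the clock list, 1 and 1 of 12 in the ATF4 list, 2 and 4 of 29 in the PPARa list and 4 and 3 of 18 in fatty acid synthesis. They numbered 0 and 2 of 22 in cholesterol synthesis, 1 and 5 of 24 in the acute phase, 0 and 0 of 19 in antigen presentation and 3 and 3 of 15 in iron handling. Among sex-biased genes they numbered 1 and 7 of 20 male-biased and 2 and 1 of 8 female-biased genes, and in growth hormone signalling, which holds Socs2, 2 and 0 of 13.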

How the data were processed

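Liver RNA was measured in 22 libraries as poly(A)-selected RNA-seq. The authors deposited 1 table of RPKM values, one column per library, and no counts. Bowtie 1.0.0, Cuffdiff 2.1.1 and mouse build mm9 are named in the submitters' processing notes, without their roles, and the annotation is not given in the sources used here. Of 24397 entries, 461 were empty and 27 carried dates in place of names, which left 23909 symbols. The depth of a library is known only relative to JAX 1 (0.589 to 1.66), since steps of single reads were whole within 0.03 reads in 81.19% of 4407 low genes, too few to recover counts.

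Groups were taken from the labels. The members and gene lists were chosen with earlier results of these data known. Tests used limma 3.58.1 in R 4.3.3 with a trend on log2(RPKM + 1), all 5 groups in one fit, the 12264 genes reaching 1 RPKM in 4 or more libraries, two-sided, and Benjamini-Hochberg adjustment over all of them, tested on simulated data. Fold changes on this scale understate those of low genes. Library type is the sign of the slope of gene-centred log2 RPKM on log2 transcript length in 7798 genes whose mean lay between 5 and 300 RPKM. Any of the 120 members could be named, and values in every library were given for those with high scores, those past a threshold and those in a gene list. Alternatives were other pseudocounts, filters and scalings, array weights, a replicate block, library type as a term (chosen after seeing the data) and leaving out each library. Same-numbered libraries of different groups had a mean correlation of deviations of 0.0162 (-0.133 to 0.186). Differently numbered ones had -0.0044 (-0.351 to 0.256). No pairing was used in the main fit, and these values do not settle whether the numbers mark one. Symbols dropped by the rule were counted (418) and are not described. One member that passed is counted but not reported here.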

Additional observations from a re-analysis of the deposited data

Results flagged for a closer look

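A library was set apart where its distance to the nearest other library of its group, divided by the group's range, exceeded Dixon's 95% value. This held for 20 of 210 gene and group pairs, and chance flags about 1 in 20 groups. These pairs cover only a part of the members, so the list is not complete for the genes described above. All values are RPKM.

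Cfd was 32.68 in TAC 3, above 5.962 to 9.888 in the other TAC libraries. Wfdc2 was 31.51 in GF_TAC 2, above 16.57 to 19.7 in the other GF_TAC libraries. Sdr9c7 was 23.94 in GF 2, above 9.981 to 12.29 in the other GF libraries. Rab34 was 30.4 in JAX 4, above 25.18 to 25.85 in the other JAX libraries. Gal3st1 was 26.54 in JAX 4, above 12.43 to 14.3 in the other JAX libraries. Unc119 was 40.63 in TAC 1, above 29.67 to 30.24 in the other TAC libraries. H2-Q6 was 17.05 in GF 1, above 0.01298 to 0.2859 in the other GF libraries. H2-Q6 was 41.43 in JAX 3, above 3.116 to 9.001 in the other JAX libraries.

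Ly6d was 19.45 in TAC 4, above 8.114 to 9.897 in the other TAC libraries. Lpl was 6.161 in JAX 3, above 5.093 to 5.211 in the other JAX libraries. Socs2 was 28.27 in GF_JAX 3, above 6.501 to 11.95 in the other GF_JAX libraries. Insl3 was 1.32 in TAC 1, above 0 to 0.01197 in the other TAC libraries. Hamp2 was 293.4 in GF_TAC 5, above 185.6 to 214.5 in the other GF_TAC libraries. Idi1 was 83.44 in TAC 2, above 16.7 to 26.51 in the other TAC libraries. Crip1 was 82.22 in GF_JAX 3, above 15.91 to 32.91 in the other GF_JAX libraries. Ccl6 was 14.56 in GF 2, above 14.31 to 14.33 in the other GF libraries.

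Sdr9c7 was 18.36 in GF_JAX 5, below 30.7 to 34.62 in the other GF_JAX libraries. Rab3d was 6.157 in TAC 2, below 8.554 to 8.751 in the other TAC libraries. Ints7 was 7.11 in JAX 3, below 8.635 to 8.918 in the other JAX libraries. Papss1 was 2.366 in GF_TAC 4, below 4.377 to 4.695 in the other GF_TAC libraries.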

How the results depend on the processing

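Of 107 tested members, GF_JAX minus JAX gave 24 calls, and 13 with library type as a term (10 of the 24 among them). Among all 12264 genes these counts were 1638 and 687. GF_TAC minus TAC gave 23 member calls, 0 with that term and 41 with array weights, beside 2924, 145 and 4938 of 12264 genes. With no filter on low values 14 of 120 tested members passed in GF_TAC minus TAC, beside 2591 of 17363 genes. The 0 calls of TAC minus JAX became 4 with array weights, 1 without GF_JAX 1 and 4 and 1 with library type as a term. Over all genes 36 calls became 218, 62 and 69 in the same order. The library type term was estimated within GF_JAX alone, the only group with libraries of both types. With library type as a term, GF_TAC minus TAC turned to -0.16 for Crip1, -0.18 for Hbb-b2, 0.05 for Ints7, -0.0014 for Lpl and -0.0029 for Orm3. The cause was not tested.

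With each library left out in turn, member calls ranged from 0 to 1 in GF_TAC minus GF_JAX (1 without GF_JAX 5) and from 17 to 26 in GF_JAX minus JAX. They ranged from 12 to 27 in GF_TAC minus TAC, and TAC minus JAX stayed at 0. Over all 12264 genes the calls ranged from 5 to 111, 739 to 2448, 1800 to 3311 and 16 to 44 in the same order. Members kept ranged from 44 to 59 of 60 low in GF and from 40 to 59 of 60 high in GF, and genes without overlap from 12 to 25. With group medians 39 genes low and 33 high in GF were kept, with recipients of the library type of GF alone 27 and 39, and with a mean RPKM of at least 1 the list high in GF kept 37. Genes without overlap fell in number to 7 in TPM. Whichever library was left out, 16 members low in GF and 15 high in GF were kept.

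Whether the replicate numbers pair the libraries is not settled by the correlations given above. With the replicate block 0 members passed in GF_TAC minus GF_JAX, 0 in TAC minus JAX, 19 in GF_JAX minus JAX and 17 in GF_TAC minus TAC. Over all 12264 genes 7, 35, 1161 and 2096 passed in the same order.

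Depth cannot be given in reads, so low values, and short RNAs above all, carry no interval.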
